A study of Mus musculus with 16 samples.

Results

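Broad regions are stretches of at least 5 kb that the authors listed as a single region of differing H3K27ac between 2 cell types on the path to mouse dendritic cells. They were chosen by their length alone, on the autosomes and without joining neighbours, from 4 deposited lists of differential regions. There were 1362 of them among 268010 autosomal regions, or 273958 regions with the sex chromosomes. For comparison, 59371 autosomal regions were 1 to 2 kb long. Chromatin immunoprecipitation and sequencing of H3K27ac was done in multipotent progenitors (MPP), common dendritic cell progenitors (CDP) and the 2 mature types, classical (cDC) and plasmacytoid (pDC) dendritic cells, all from C57BL/6 mice with no genetic change or treatment named. Each cell type had 2 libraries. The 4 samples of input chromatin and the 4 of RNA are not used here. The lists compared MPP with CDP, CDP with cDC, CDP with pDC, and cDC with pDC, and are named MPP/CDP, CDP/cDC, CDP/pDC and cDC/pDC below. The labels give no sex, age, number of animals or culture, and do not state whether both libraries of a type stem from different animals or cultures. The labels name an abcam antibody for the sample and Santa Cruz Biotechnology in the protocol.

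H3K27ac is an acetylation of histone H3 that is found at active promoters and enhancers. Long unbroken stretches of it are known in general from clusters of enhancers, often called super-enhancers, from long promoters of highly transcribed genes, and from dense groups of active genes. Such stretches are often found near genes that define a cell type. In this lineage MPP can still form many kinds of blood cells, CDP are committed to dendritic cells, cDC present antigen to T cells, and pDC secrete type I interferon in response to viral nucleic acids. Coordinates are those of mouse build mm9, counted from 1. An annotation of that build was not used here, so regions are described by position, no gene is named, and the cell type labels were not checked against marker genes.

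The signal of a region is a whole number per library. For one library at the same regions, the median factor between lists was 0.878 to 1.24, and near 1 for cDC (1 and 0.996). How the signals were scaled is not given, so levels are set side by side within one list and never across lists. These list units are not read counts, and how deeply the libraries were sequenced is unknown. Length, direction and signal come from the same 4 libraries of a list, and the regions had been called because they differ, so their values are given as a description, with no test. With 2 libraries against 2, a two-sided exact permutation test of one region cannot give a p-value below 0.3333. All 1362 broad regions had signal above 0 in every library. Their deposited −log10 p was at least 27.6. All of them therefore passed a −log10 p of 10, which 40.7% of all regions higher in MPP and 31.5% of those higher in CDP did in MPP/CDP. In the other lists the background was 42.7% (CDP) and 38.6% (cDC) in CDP/cDC, 51.5% (CDP) and 59.8% (pDC) in CDP/pDC, and 44.2% (cDC) and 59.5% (pDC) in cDC/pDC. Lists with a cell type in common use the same libraries for it, while MPP/CDP and cDC/pDC have no library in common.

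Broad regions were mostly regions of higher acetylation in pDC. The cDC/pDC list held 505, of which 447 were higher in pDC and 58 in cDC. The CDP/pDC list held 458, of which 363 were higher in pDC and 95 in CDP. In the CDP/cDC list 164 of 273 were higher in CDP and 109 in cDC, and in the MPP/CDP list 76 of 126 were higher in MPP and 50 in CDP. Broad regions made up 0.780%, 0.670%, 0.363% and 0.211% of the autosomal regions of these lists, in the same order.

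The lean toward pDC was larger among broad regions than among all regions of the same list. In cDC/pDC, pDC was the higher cell type in 88.5% of broad regions, 61.7% of regions of 1 to 2 kb and 57.0% of all regions. In CDP/pDC the shares were 79.3%, 54.1% and 50.1%. In cDC/pDC the share was 53.1% of the shortest regions (0.15 to 0.5 kb) and 52.1% at 0.5 to 1 kb, then rose to 88.9% at 5 to 7 kb, and was 87.3% at 7 kb or more. In CDP/pDC it rose from 45.8% in the shortest class to 79.0% at 5 to 7 kb and 80% at 7 kb or more. In the lists without pDC the direction did not follow length in this way. MPP was higher in 60.3% of broad regions, 61.0% of regions of 1 to 2 kb and 54.3% of all regions of its list, and CDP in 60.1%, 54.3% and 57.2% of those of CDP/cDC. Scaling each library to the same autosomal total of its list left the broad regions of cDC/pDC at 86.3% higher in pDC, with 436 in pDC and 69 in cDC. The same scaling moved the share over all regions of that list from 57.0% to 39.6%, and that of regions of 1 to 2 kb from 61.7% to 50.4%. In CDP/pDC it left 79.3% of the broad regions higher in pDC and moved all regions to 41.5%. It shifted the median log2 ratio of pDC over the other cell type over all regions by -0.46 in cDC/pDC and -0.30 in CDP/pDC. In broad regions of either direction the median log2 ratio of pDC over cDC was 1.62 as deposited and 1.18 with equal totals, and that of pDC over CDP 1.77 and 1.49.

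**Figure D1:**
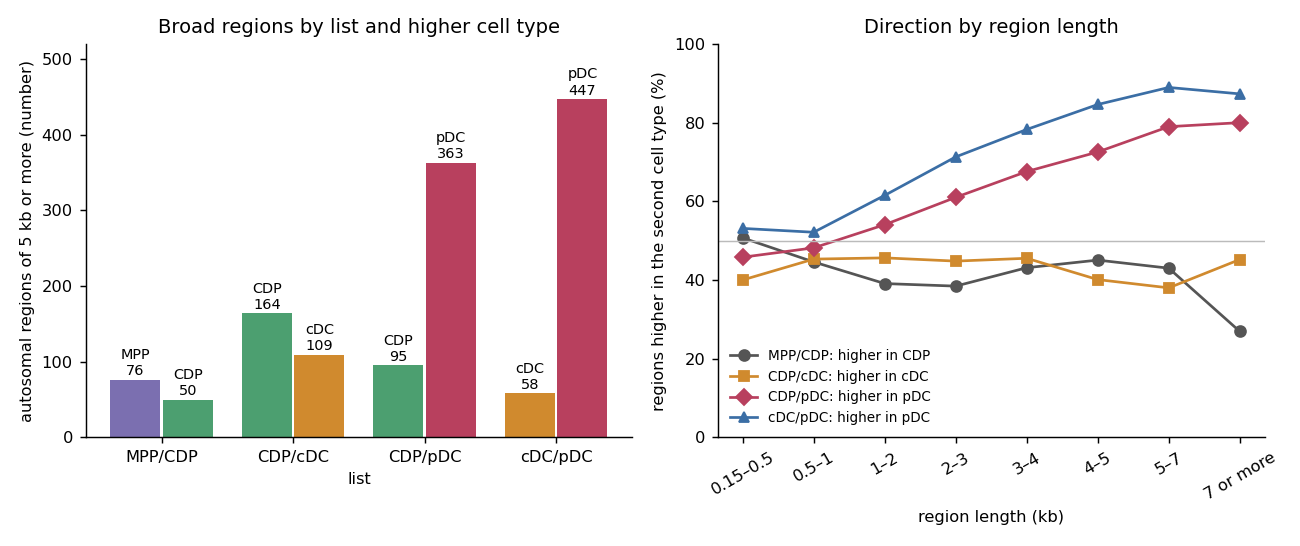
Left, the number of autosomal regions of 5 kb or more in each list, with one bar for each higher cell type. Right, the percentage of regions higher in the second cell type of a list in 8 classes of region length in kb, with a line at 50%. The 2 bars for pDC, 363 and 447, are the tallest, and the 2 lines for pDC climb between 1 kb and 7 kb while the other 2 stay between 26.9% and 50.7%.

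The plot of counts and of direction by length shows that the lean toward pDC began at lengths well below 5 kb. Broad regions higher in pDC were 1.21% of the pDC regions of cDC/pDC, covered 8.04% of their base pairs and held 12.1% of the signal that pDC libraries had in regions of that direction. In CDP/pDC these shares were 1.06%, 7.11% and 11.1%. In the other 6 sets the share of signal ran from 2.02% (CDP of MPP/CDP) to 4.69% (CDP of CDP/cDC). The broad regions higher in pDC covered 3.11 Mb in cDC/pDC and 2.49 Mb in CDP/pDC. Their median lengths were 6.05 and 6.1 kb, against 5.75 to 6.0 kb in the other sets, and 33 and 22 of them reached 10 kb or more.

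Broad regions were also denser in signal than regions of 1 to 2 kb, by 1.29 to 2.22 times. The 2 pDC sets stood highest at these lengths, but not at a minimum of 8 kb. There pDC over CDP was at 2.36 times and pDC over cDC at 2.43 times. CDP over pDC was at 2.89 times, cDC over pDC at 2.81, cDC over CDP at 2.65 and CDP over cDC at 2.58. These 4 values rest on only 18, 4, 17 and 22 regions. MPP over CDP and CDP over MPP were lower, at 1.76 and 1.36 times. In cDC/pDC, broad regions higher in pDC had a median of 1800.2 signal units per kb in the first-listed pDC library and 1951.4 in the second. Regions of 1 to 2 kb had 767.2 and 941.8. The median of the library means was 2.22 times that of the shorter regions. In CDP/pDC, the medians for pDC were 1519.8 and 1701.3 per kb in broad regions and 661.8 and 832.0 in the shorter ones, a difference of 2.17 times. The other higher cell types stood at 1.81 times (CDP in CDP/cDC), 1.73 times (CDP in CDP/pDC), 1.69 times (cDC in cDC/pDC), 1.64 times (cDC in CDP/cDC), 1.501 times (CDP in MPP/CDP) and 1.29 times (MPP). For MPP the libraries read 1553.8 and 1198.3 per kb in broad regions against 1162.1 and 945.7 in the shorter ones. The difference for MPP depended on the lengths compared, since MPP broad regions had 0.88 times the signal per kb of regions of 2 to 3 kb.

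The lower cell type was not empty in broad regions. Where pDC exceeded cDC, the median in cDC was 396.9 and 613.9 per kb in its 2 libraries, against 195.2 and 326.9 in regions of 1 to 2 kb, or 1.97 times for the mean of both. Where pDC exceeded CDP, CDP had 1.72 times the density of the shorter regions. Where cDC exceeded pDC, pDC libraries read 383.9 and 523.1 per kb in broad regions and 410.0 and 498.0 in the shorter ones, so that the lower cell type was at about the same density in both (0.97 times). In the remaining 5 sets the lower cell type was at 1.10 to 1.56 times.

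The difference between the 2 cell types, on the scale of log2 of the ratio of means with 1 added to each mean, had a higher median in broad regions in every list and direction. It was 2.12 against 1.61 for pDC over CDP, 1.84 against 1.46 for pDC over cDC, 1.69 against 0.84 for cDC over pDC and 1.65 against 1.01 for CDP over pDC. It was 1.08 against 0.70 for cDC over CDP, 1.04 against 0.73 for CDP over cDC, 1.01 against 0.70 for CDP over MPP and 0.83 against 0.54 for MPP over CDP. The rise was one of the middle and the lower end of the distribution. The 90th percentile of broad regions was 0.54 higher than that of the shorter ones for cDC over CDP, but 0.52 lower for pDC over cDC and 0.40 lower for CDP over MPP. Ratios of at least 8 were seen in 18.6% of broad and 23.7% of shorter regions for pDC over cDC, and in 25.3% and 24.9% for pDC over CDP. Every broad region, but only part of the shorter ones, passed a −log10 p of 10. Among regions that passed it, the difference of medians went from 0.31 to 0.061 for CDP over cDC, from 0.31 to 0.068 for CDP over MPP, from 0.30 to 0.11 for MPP over CDP, from 0.37 to 0.16 for cDC over CDP and from 0.38 to 0.19 for pDC over cDC. With libraries scaled to equal totals and direction taken anew from the scaled means, the difference of medians for pDC over cDC went from 0.38 to -0.04. The sets changed too, from 447 to 436 broad regions and from 9391 to 7683 of 1 to 2 kb. Over both directions, scaling shifted the median log2 ratio of pDC over cDC by -0.45 in broad and -0.46 in shorter regions. The sign thus depends on the scaling together with which regions count as higher in pDC.

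**Figure D2:**
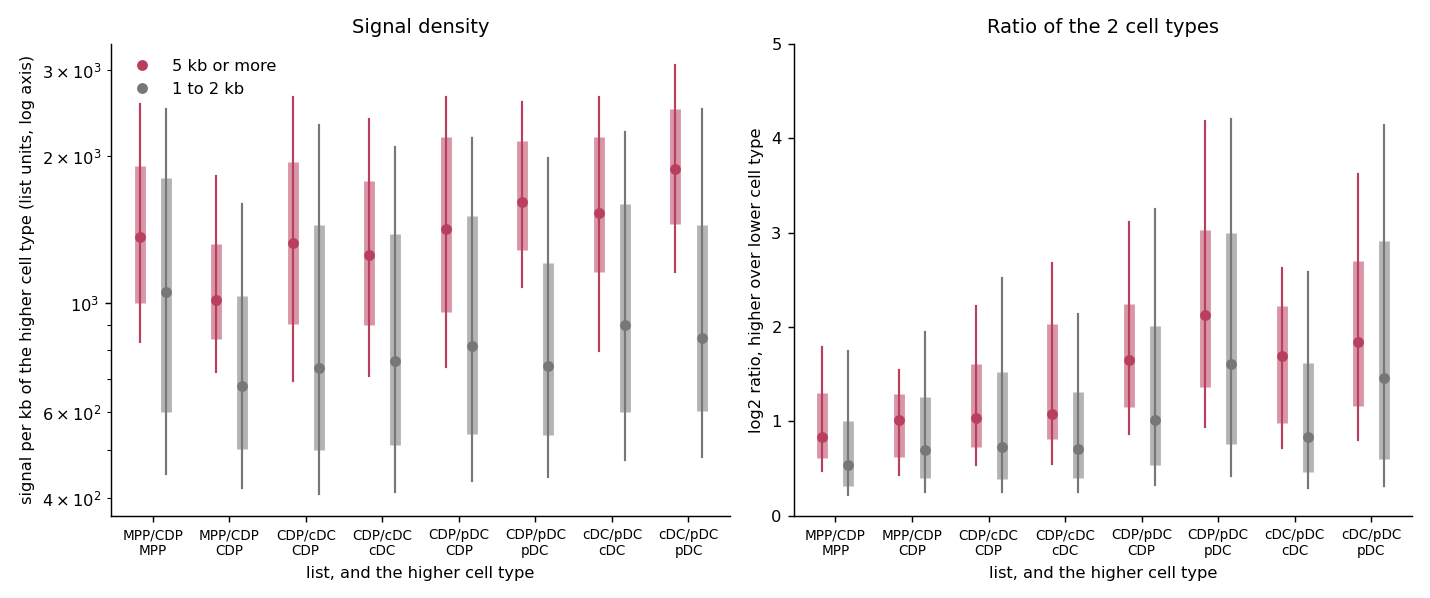
Left, signal per kb of the higher cell type in list units on a log axis. Right, log2 ratio of the higher over the lower cell type. Points are medians over regions, thick bars run between the 25th and 75th percentiles and thin lines between the 10th and 90th, for regions of 5 kb or more and of 1 to 2 kb in each list and direction. Each median of broad regions lies above that of the shorter ones, while the upper ends of the ratios overlap.

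Signal density and ratio are tied in these lists, as the plot of density and ratio shows side by side, and shorter regions were therefore also taken from the same class of signal per kb, with 4 classes that each hold the same number of broad regions. For pDC over CDP, broad regions exceeded such shorter regions by 0.21 in the lowest class and by 1.44 to 1.67 in the upper 3. For pDC over cDC the differences were 0.073 in the lowest class and 1.07 to 1.60 in the others. In the other 6 sets they lay between 0.26 (CDP over MPP, highest class) and 1.07 (CDP over pDC, highest class). Dense short regions had small ratios, with a median log2 ratio of 0.38 in the highest class for pDC over CDP, where broad regions had 1.82.

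The 2 libraries of each cell type seldom overlapped between cell types in broad regions. Both libraries of the higher cell type lay above both of the other in 363 of 363 broad regions for pDC over CDP, where 79.5% of all regions of that direction did, and in 445 of 447 for pDC over cDC, against 73.6%. The counts were 94 of 95 for CDP over pDC against 76.2%, and 56 of 58 for cDC over pDC against 60.6%. They were 155 of 164 for CDP over cDC against 63.2%, and 96 of 109 for cDC over CDP against 51.3%. For MPP over CDP it was 69 of 76 against 59.6%, and for CDP over MPP 43 of 50 against 58.7%. In regions of 1 to 2 kb the shares were 69.7% to 95.3%. A ratio of at least 2 was reached by 320 of the 363 and 369 of the 447 broad regions higher in pDC, against 53.1% and 50.2% of all regions of those directions. It was reached by 79 of 95 (CDP over pDC, against 44.1%), 42 of 58 (cDC over pDC, 31.7%), 85 of 164 (CDP over cDC, 39.9%), 65 of 109 (cDC over CDP, 27.9%), 25 of 50 (CDP over MPP, 24.6%) and 26 of 76 (MPP over CDP, 27%).

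The second-listed cDC library read higher than the first in broad regions. It was higher in 98.6% of those of cDC/pDC and 97.4% of those of CDP/cDC, by a median of 0.63 and 0.61 on the log2 scale, against 0.50 and 0.48 in regions of 1 to 2 kb. For pDC the offset between libraries was 0.14 and 0.16 in its lists, for CDP 0.16 to 0.32, and for MPP -0.30. The direction of the means was kept by 44 of 50 broad regions for CDP over MPP without the second-listed CDP library, and by 101 of 109 for cDC over CDP without the second-listed cDC library. In the lists with pDC no count changed when any one library was left out.

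The longest single region of all lay on chromosome 8 and was higher in pDC than in cDC. At chr8:123289151-123326450 it ran for 37.3 kb, with signals of 67865 and 70070 in the pDC libraries and 12371 and 16085 in the cDC libraries. The pDC values lay 4.85-fold above those of cDC, and the SD between libraries on the log2 scale was 0.03 for pDC and 0.27 for cDC. Next to it, chr8:123258751-123286150 (27.4 kb) read 54678 and 49526 in pDC and 15865 and 17302 in cDC, a 3.14-fold difference. Against CDP, the same neighbouring place was one region of 29.1 kb, chr8:123258751-123287850, with 47131 and 43724 in pDC and 4223 and 6292 in CDP, 8.64-fold apart. All pDC values were far above those of the other cell type in each of these regions.

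Other broad regions higher in pDC had hardly any signal in the other cell type. At chr7:63018151-63042650, a region of 24.5 kb, the pDC libraries read 37249 and 40985 and the CDP libraries 1540 and 2350, a 20.1-fold difference. The largest ratio of CDP/pDC was at chr1:166382151-166389500 (7.35 kb), where pDC had 12017 and 11990 and CDP 76 and 135, 113-fold apart. At chr11:16837801-16847300 (9.5 kb) pDC had 18321 and 22209 and CDP 204 and 342, 74.0-fold apart. In cDC/pDC the largest ratios were 60.4-fold at chr16:19240551-19247050, with 20418 and 14251 in pDC and 137 and 435 in cDC, and 60.2-fold at chr9:32419151-32425850, with 12480 and 16374 in pDC and 80 and 397 in cDC. The cDC libraries differed from each other by several-fold at both, yet both stayed far below the pDC libraries.

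The smallest ratios among broad pDC regions with separate libraries were close to 1. At chr2:163465001-163470850 (5.85 kb) pDC read 11525 and 10460 and CDP 7106 and 10076, a 1.28-fold difference. At chr15:36722201-36727200 (5 kb) pDC read 14096 and 13310 and cDC 9269 and 12638, 1.25-fold apart. The nearest libraries of the cell types were close to each other at both. Broad regions thus ranged from near equality to the 113-fold difference above.

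In cDC the longest regions were neighbours on chromosome 17 and stood above both CDP and pDC. At chr17:34418151-34436650 (18.5 kb) cDC read 39109 and 56526 and CDP 5983 and 4633, a 9.01-fold difference. In cDC/pDC almost the same stretch, chr17:34418251-34436550, had 38726 and 56438 in cDC and 8594 and 14870 in pDC, 4.06-fold apart. Its neighbour chr17:34393201-34408400 (15.2 kb) read 30037 and 41869 in cDC and 3281 and 2366 in CDP, 12.7-fold apart, and chr17:34393251-34407750 read 29544 and 41503 in cDC and 3491 and 7569 in pDC, 6.42-fold apart. The cDC libraries are the same in both lists.

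The largest ratios of cDC were smaller than those of pDC. At chr16:10479301-10484300 (5 kb) cDC had 4405 and 4208 and CDP 258 and 298, a 15.4-fold difference. Against pDC the largest were 8.78-fold at chr13:99950651-99958250 (7.6 kb), with 4456 and 6302 in cDC and 435 and 789 in pDC, and 7.85-fold at chr13:43879951-43887100 (7.15 kb), with 5243 and 12778 in cDC and 890 and 1405 in pDC. The smallest were 1.33-fold at chr10:98723501-98729150, where cDC had 8968 and 11462 and CDP 7590 and 7743, and 1.38-fold at chr6:31072551-31077600, where cDC had 10439 and 14353 and pDC 9713 and 8221.

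In CDP, the longest regions of CDP/pDC and CDP/cDC lay at the same places on chromosomes 13 and 5. At chr13:23828701-23853200 (24.5 kb) CDP read 43884 and 70994 and pDC 24804 and 18702, a 2.64-fold difference, with the CDP libraries far apart from each other. At chr5:3488901-3504100 (15.2 kb) CDP read 24031 and 22925 and pDC 2622 and 2405, 9.34-fold apart. In CDP/cDC the latter place was chr5:3488501-3506150 (17.65 kb), with 28375 and 26632 in CDP and 3515 and 6960 in cDC, 5.25-fold apart. The largest ratios of both lists were at one further place of chromosome 5. At chr5:32493101-32499300 CDP had 5264 and 3333 and pDC 99 and 181, 30.5-fold apart, and at chr5:32493101-32499400 it had 6019 and 3756 against 126 and 589 in cDC, 13.6-fold apart. The CDP libraries are shared by these lists. At chr13:52915351-52920500 (5.15 kb) CDP had 3824 and 3596 and pDC 149 and 220, a 20.01-fold difference.

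The longest broad regions of the MPP/CDP list were shorter than those of the other lists, but the median lengths were not set apart. Medians were 5.8 kb for MPP and 5.775 kb for CDP, against 5.75 kb for CDP over pDC. Their median log2 ratios, 0.83 and 1.01, were the lowest of all sets, the second close to 1.04 for CDP over cDC. The longest region of MPP/CDP, chr6:65538051-65548150 (10.1 kb), read 3454 and 2790 in MPP and 9911 and 8013 in CDP, a 2.87-fold gain in CDP. The largest gains in CDP were 5.01-fold at chr14:122359801-122365250 (5.45 kb), from 1484 and 845 in MPP to 5121 and 6552 in CDP, and 4.66-fold at chr15:80390351-80395600 (5.25 kb), from 1705 and 1277 to 6480 and 7417. Larger ratios were found in the other direction. At chr11:87605651-87614500 (8.85 kb) MPP had 18526 and 13369 and CDP 530 and 727, a 25.3-fold difference. At chr8:97500601-97506550 (5.95 kb) MPP had 5176 and 3707 and CDP 236 and 383, 14.3-fold apart. These 2 were the only broad regions higher in MPP with a ratio of at least 8, and none higher in CDP reached it in this list.

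One place on chromosome 16 was lower in CDP than MPP and lower again in cDC than CDP. At chr16:95655451-95664650 (9.2 kb), the longest region higher in MPP, MPP read 10554 and 10842 and CDP 4874 and 3857, a 2.45-fold difference. In CDP/cDC its second part was a broad region too. At chr16:95659351-95664500 (5.15 kb) CDP read 4133 and 3137 and cDC 162 and 540, 10.3-fold apart. The groups did not overlap in either list. The densest named region, chr6:86473051-86478150 (5.1 kb), had 45921 and 33255 in MPP and 26508 and 32989 in CDP, only 1.33-fold apart, with the second MPP library just above the second CDP library.

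Values changed little across the length limit. Regions of 5000 to 5100 bp numbered 14, 46, 50 and 59 in MPP/CDP, CDP/cDC, CDP/pDC and cDC/pDC, with median log2 ratios of 0.81, 0.99, 1.65 and 1.87. Regions of 4850 to 4950 bp numbered 26, 36, 52 and 51, with median log2 ratios of 0.85, 1.12, 1.79 and 1.77.

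Some broad regions had a neighbour of the same kind. Another broad region of the same direction lay within 50 kb of 30.3% of those higher in pDC than CDP and 28.4% of those higher in pDC than cDC, and of 9.21% (MPP over CDP) to 23.2% (CDP over pDC) in the other sets. The sets hold 50 to 447 regions and larger sets have more possible neighbours, so the shares do not compare between sets. Runs of at least 3 broad regions no more than 50 kb apart numbered 11 for pDC over cDC, with 35 regions, and 10 for pDC over CDP, with 32. The other 6 sets had 1 to 5 such runs each. The run of most regions, 5, spanned 54.4 kb at chr13:23622701-23677100, where CDP exceeded cDC by 1.67-fold to 2.13-fold. The run at chr17:34393201-34487150 held 4 regions higher in cDC than CDP by 6.05-fold to 12.7-fold, 51.15 kb of its 93.95 kb. At chr8:123258751-123326400, 3 regions higher in pDC than CDP filled 66.2 of 67.65 kb, with ratios of 7.16 to 16.5. Chromosome 13 held 29 of the 273 broad regions of CDP/cDC, or 10.6%, and 4.34% of all its regions.

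Merging broad regions that overlap between lists gave 801 places with a median length of 6.05 kb, 5.53 Mb in all and 8 of them longer than 20 kb. A place was broad in 1 list in 334 cases, in 2 lists in 399, in 3 in 59 and in all 4 in 9. The commonest pattern was a broad region higher in pDC in both CDP/pDC and cDC/pDC, at 284 places. It was followed by pDC over cDC alone at 116, CDP over cDC alone at 62, cDC over CDP alone at 49 and MPP over CDP alone at 46. CDP was higher in broad regions of both CDP/cDC and CDP/pDC at 37 places, and cDC in both of its lists at 25. The paired patterns rest on shared libraries of the cell type named.

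Counted by region, 320 of the 363 broad regions higher in pDC than CDP (88.2%) overlapped a broad region higher in pDC than cDC, and 312 of those 447 (69.8%) overlapped one of the former. For CDP, 65 of 164 in CDP/cDC (39.6%) and 65 of 95 in CDP/pDC (68.4%) overlapped. For cDC it was 28 of 109 in CDP/cDC (25.7%) and 28 of 58 in cDC/pDC (48.3%). Of all regions of these directions, broad ones included, 2.21% (pDC over CDP), 1.43% (pDC over cDC), 1.88% and 1.32% (CDP over cDC and over pDC), and 3.18% and 1.70% (cDC over CDP and over pDC) overlapped a broad region of the respective other list in either direction. Longer regions have more room to overlap. The overlaps share the 2 libraries of pDC, CDP or cDC and describe the extent of the places, with no test. Broad regions of one list were often cut into shorter regions in another. Of the 58 higher in cDC than pDC, all 58 were touched by regions of CDP/cDC, 41 (70.7%) mainly by regions higher in cDC, and 17 mainly by regions higher in CDP. The share is near that of the 1 to 2 kb regions of this direction (67.4%) and of all of them (64.8%).

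At 56 of the 801 places a cell type stood on opposite sides in broad regions of its lists. It was CDP at 28, cDC at 23, pDC at 2, both CDP and cDC at 2, and both cDC and pDC at 1. This needs broad regions in at least 2 lists, as found at 399 (2 lists), 59 (3 lists) and 9 (4 lists) places. Shorter regions were not counted in this way. The longest of the 56 places were on chromosome 8, where cDC lay above CDP and below pDC. At chr8:123288851-123326450 (37.6 kb), the CDP/cDC regions lying at least 50% within it summed to 3214 and 5733 in CDP and 10613 and 13713 in cDC. They covered 23.2 of its 37.6 kb, all of it called higher in cDC, so that the sums describe the called stretches and not the whole place. Those of CDP/pDC covered 37.1 kb and summed to 3360 and 6706 in CDP and 57194 and 59654 in pDC, 11.6-fold higher in pDC. The one region of cDC/pDC, 37.3 kb long, was 4.85-fold higher in pDC. In the MPP/CDP list only 4.35 kb of this place was covered. The neighbouring 29.1 kb place had the same order, with cDC at 15514 and 16634 against 4029 and 5707 in CDP over the 18.9 kb in CDP/cDC regions, and pDC at 55876 and 50876 against 17045 and 18808 in cDC (2.98-fold).

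The 6 longest places broad in all 4 lists differed by 1.13-fold to 1.66-fold between MPP and CDP and by 1.10-fold to 1.69-fold between CDP and cDC. These ratios, too, are of sums over the called regions within a place. At chr11:3025101-3049050 (23.95 kb), regions summed to 24982 and 16461 in MPP and 13314 and 19183 in CDP, so that the libraries overlapped. CDP had 16556 and 22926 and cDC 10945 and 16637, which overlapped as well. pDC stood above both, with 30482 and 32855 against 13910 and 19695 in CDP (1.88-fold), and 37820 and 40223 against 11152 and 16869 in cDC (2.79-fold). The place at chr8:129106601-129123200 (16.6 kb) had the same order, with pDC at 61803 and 61019 against 15343 and 25435 in cDC (3.01-fold) and at 52079 and 51399 against 20624 and 26173 in CDP (2.21-fold). MPP and CDP overlapped there too, at 27756 and 21010 against 18874 and 24404.

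A different order was found at chr13:23828701-23853250 (24.55 kb), where pDC was below CDP and cDC. No list compares pDC with MPP. CDP read 49852 and 79551 against 30138 and 46633 in cDC (1.69-fold) and 43884 and 70994 against 24804 and 18702 in pDC (2.64-fold). cDC read 28598 and 43402 against 28546 and 20878 in pDC (1.46-fold), with the lower cDC library next to the higher pDC library. MPP, at 50796 and 33404, and CDP, at 39875 and 65252, overlapped. At 3 further places, pDC was above CDP and cDC. At chr13:56263401-56287250 (23.85 kb) it read 24156 and 26967 against 10030 and 19425 in CDP (1.74-fold), and 28608 and 31583 against 16323 and 19627 in cDC (1.67-fold). At chr3:87941001-87955750 (14.75 kb) it exceeded CDP 1.55-fold and cDC 1.94-fold, and at chr17:84578801-84589550 (10.75 kb) 1.79-fold and 1.48-fold.

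**Figure D3:**
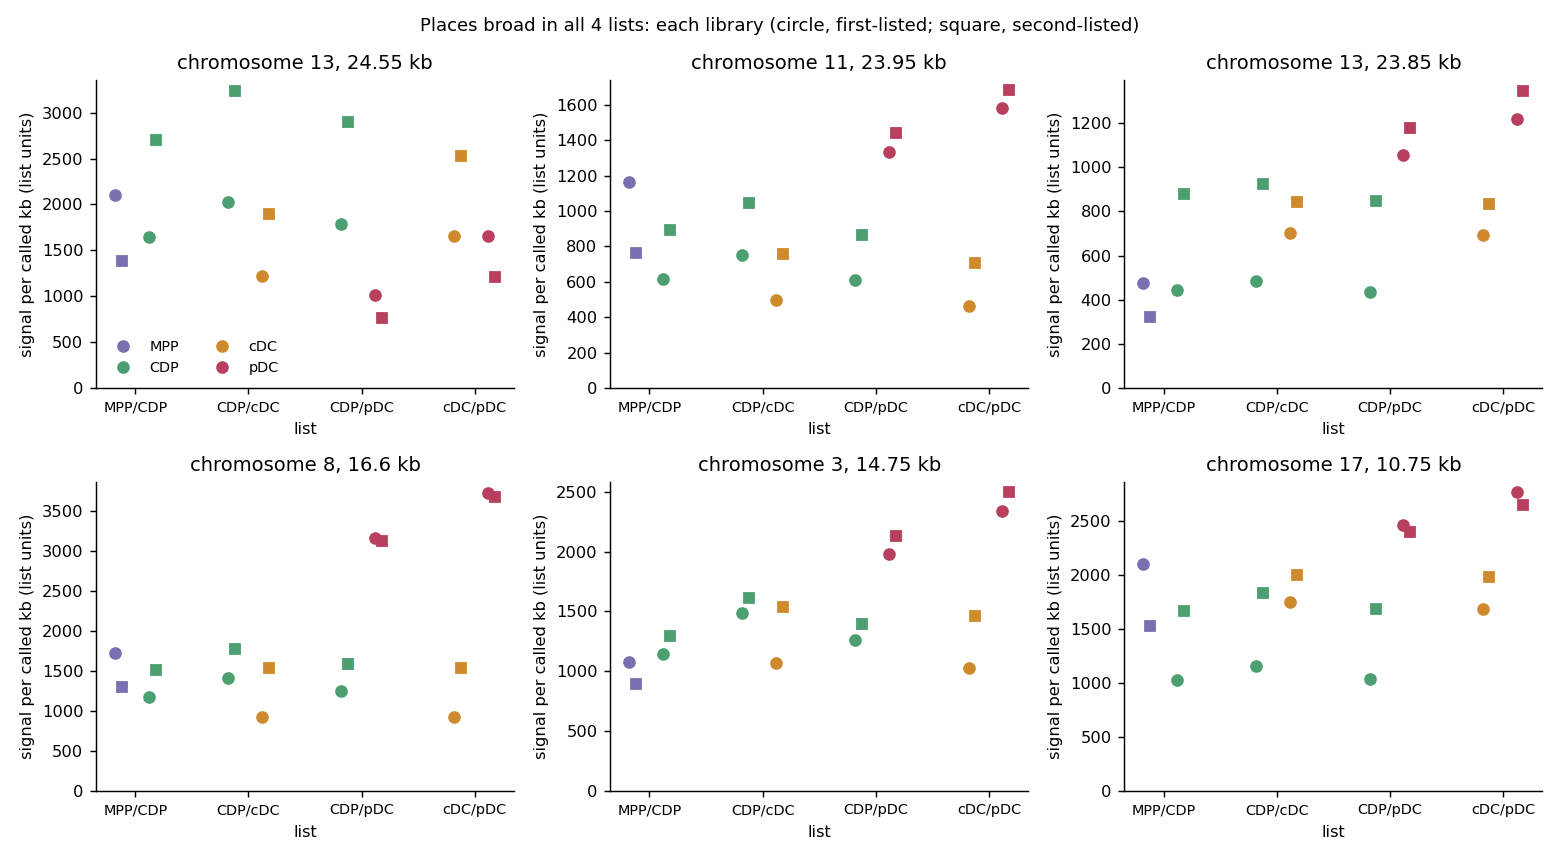
Signal per called kb (list units) of each library in each list at the 6 longest places that hold a broad region in all 4 lists, with circles for first-listed and squares for second-listed libraries. The pDC libraries lie above CDP and cDC at 5 of the places and below the CDP libraries at the 24.55 kb place on chromosome 13, while MPP and CDP libraries overlap at 5 of the 6.

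The plot of places broad in all 4 lists shows each library within its own list, since heights do not compare between lists. At the 5 places where pDC was above CDP and cDC, both pDC libraries lay above both libraries of each. The CDP and cDC libraries overlapped there in CDP/cDC. The MPP and CDP libraries were apart only at the place on chromosome 3.

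The MPP/CDP and cDC/pDC lists share no library, so that each gives a readout of the other's regions that did not take part in choosing them. Of the 58 broad regions higher in cDC than pDC, 54 (93.1%) had more signal in CDP than in MPP, summed over the MPP/CDP regions that lie at least 50% within them. The median log2 ratio of these sums was 0.77. It is not a ratio of the whole broad regions, since the MPP/CDP regions covered 64.8% of their base pairs and stretches not called are left out. For regions of 1 to 2 kb of the same direction the share was 57.5%, with a median of 0.12 for such sums, and for all regions 58.1%. With the libraries of MPP/CDP scaled to equal totals 54 of 58 broad regions were higher in CDP. Leaving out single libraries gave 45 (77.6%, without the second-listed CDP library), 47, 53 and 54. The share for regions of 1 to 2 kb moved as well, to 65.4% with equal totals and to 49.0% to 68.9% without single libraries. In base pairs, 55.4% of these broad regions was covered by regions higher in CDP and 9.41% by regions higher in MPP, against 38.3% and 32.2% of regions of 1 to 2 kb.

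Broad regions higher in pDC than cDC leaned less. Of 447, 402 held such a region of the MPP/CDP list, and 230 of these (57.2%) had more signal in CDP, with a median log2 ratio of 0.11. Regions of 1 to 2 kb had 42.1% and all regions 46.2%. The share of broad regions fell to 45.8% without the second-listed CDP library and rose to 71.1% without the first, so that its side of 50% rests on single libraries. For regions of 1 to 2 kb these settings gave 34.3% and 51.4%. Equal totals brought the broad and shorter regions to 68.7% and 50.3%. A broad region has more room for regions of another list than a shorter one. The MPP/CDP list covered 47.5% of the base pairs of these broad regions and 44.0% of those of the shorter ones.

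In the opposite reading, 66 of the 76 broad regions higher in MPP than CDP held a region of cDC/pDC, and 46 of them (69.7%) had more signal in pDC than cDC, against 54.3% of regions of 1 to 2 kb. Equal totals brought the 2 shares to 43.9% and 23.9%, and leaving out single libraries gave 57.6% to 81.8% for the broad regions. Of the 50 broad regions higher in CDP than MPP, 49 did so, and 20 (40.8%) had more signal in pDC, close to the 40.1% of the shorter regions. Without the second-listed cDC library this share was 53.1%. Equal totals brought the broad and shorter regions to 24.5% and 23.1%. At 30 of the 801 places both lists held a broad region.

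**Figure D4:**
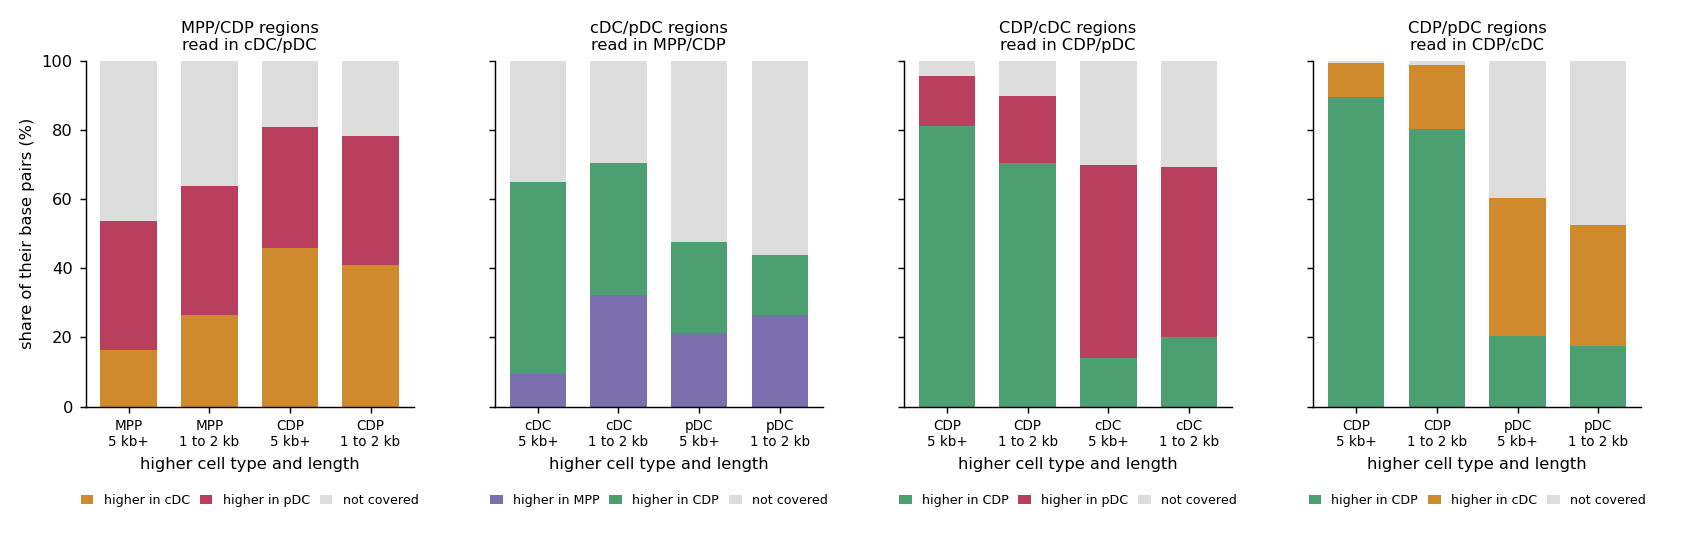
Share of the base pairs (%) of regions of 5 kb or more and of 1 to 2 kb that was covered by each direction of another list. The panels of MPP/CDP and cDC/pDC regions pair lists that share no library, and the other 2 panels share the CDP libraries. Broad regions higher in cDC than pDC stand apart in the panel read in MPP/CDP, with 55.4% in regions higher in CDP than MPP and 9.41% in regions higher in MPP.

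The plot of base pairs covered also shows CDP/cDC and CDP/pDC, which share the CDP libraries. Broad regions higher in CDP than pDC lay to 89.6% of their base pairs in CDP/cDC regions higher in CDP, and those higher in cDC than CDP lay to 55.6% in CDP/pDC regions higher in pDC. Regions of 1 to 2 kb had 80.2% and 49.2%. Base pairs without a region in the other list do not show equal signal there.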

How the data were processed

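H3K27ac reads were aligned with BWA 0.6.1 to mm9, per the submitters' processing notes. THOR, which calls differential peaks from replicated libraries, is named in the title of the series. The lists as the authors deposited them give each region's bounds and direction, the signals of 2 libraries per cell type and −log10 of a p-value. How the signals were scaled is not given in the sources used here. One further column without a name was not used. The order of cell types within a list was checked with regions that have the same start and end in both of 2 lists. For 10 pairs of columns read as one library, the factor between lists was 0.878 to 1.24 and its SD (log2) did not exceed 0.06. For 86 further pairs the SD was 0.52 or more. MPP is in 1 list, so its columns had no match to check. The CDP columns of that list matched those of the other lists, which leaves the remaining columns for MPP, as in the list's name. Libraries carry no number in the lists and are called first-listed and second-listed.

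Broad regions were autosomal regions of at least 5000 bp, without joining. Signals were averaged over the 2 libraries, divided by length for signal per kb, and compared as log2 of the ratio of means after a pseudocount of 1. A region was read in another list by the summed signals of the regions there that lie at least 50% within it, or by the base pairs that regions there cover, and lies mainly in the direction that covers more of it. Regions were named by a rule: in each list and direction, the 2 longest, and the 2 with the largest and 1 with the smallest ratio among those with separate libraries. For merged places it takes the 6 longest in the most lists, and the 4 longest broad in both MPP/CDP and cDC/pDC or with a cell type on opposite sides. A selection of these is printed, and the runs of neighbouring regions were chosen after their values were seen. The set of regions and these lists were chosen with earlier results of these data known. Alternatives were other lengths, joining, thresholds, pseudocounts of 0.5 and 5, leaving out libraries and equal autosomal totals. Leaving out libraries for the counts, and both settings for reading a list with no shared library, were added after seeing the data. The calculation was tested on simulated data. Values were computed in Python 3.11.15 with pandas 2.3.3 and numpy 2.4.6, and figures were drawn with matplotlib 3.10.9.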

Additional observations from a re-analysis of the deposited data

How the results depend on the processing

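No paired analysis was possible because the libraries carry no replicate number in the lists. Sets are given in the order MPP and CDP (MPP/CDP), CDP and cDC (CDP/cDC), CDP and pDC (CDP/pDC), cDC and pDC (cDC/pDC), and the causes of the shifts were not tested beyond what each setting changes by construction. The number of regions was 215, 164, 406, 271, 232, 725, 142 and 909 at a minimum of 4 kb, 35, 16, 76, 55, 42, 190, 25 and 230 at 6 kb, and 8, 4, 22, 17, 18, 61, 4 and 74 at 8 kb. It was 376, 286, 720, 414, 428, 757, 224 and 873 with regions of one direction less than 1 kb apart joined, and 26, 25, 85 and 65 in the first 4 sets at a ratio of at least 2. More broad regions were higher in pDC than in the other cell type of its lists at each of these lengths and with joining. The share of pDC was smaller with joining, so its size depends on how stretches were cut. It was 757 against 428 in CDP/pDC, where single regions gave 363 against 95. In cDC/pDC it was 873 against 224, where single regions gave 447 against 58.

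Signal per kb over that of regions of 1 to 2 kb became 1.38, 1.66, 1.75, 1.49 (CDP/pDC, CDP) and 1.46 (cDC/pDC, cDC) at 4 kb, and 1.76, 1.36, 2.58, 2.65, 2.89, 2.36, 2.81 and 2.43 at 8 kb. Against regions of 2 to 3 kb it was 0.88, 1.17, 1.25, 1.27, 1.22, 1.38, 1.40 and 1.39, so that it reversed for MPP alone. With a deposited −log10 p of at least 10 it was 1.38, 1.59, 1.94, 1.82 (CDP/pDC, CDP) and 1.79 (cDC/pDC, cDC). With separate libraries it was 1.67 (MPP), 2.05, 1.83 (both of CDP/cDC), 1.75 (CDP/pDC, CDP) and 1.77 (cDC/pDC, cDC). With equal totals, and direction taken anew from the scaled means, it was 1.44 (MPP/CDP, CDP), 1.64 (CDP/pDC, CDP), 1.64 and 2.50 (cDC/pDC).

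The difference of median log2 ratios became 0.24, 0.17 (MPP/CDP) and 0.66 (cDC/pDC, cDC) at 4 kb, and 0.53, 0.18, 0.38, 0.85, 0.84 (CDP/pDC, CDP), 1.40 and 0.67 (cDC/pDC) at 8 kb. Against regions of 2 to 3 kb it was 0.14 (MPP/CDP, CDP), 0.23, 0.20, 0.12 (CDP/pDC, pDC), 0.56 and 0.074. At −log10 p of at least 10 it was 0.11, 0.068, 0.061, 0.16, 0.37 (CDP/pDC, pDC), 0.73 and 0.19. With separate libraries it was 0.12 (MPP), 0.054 (CDP/cDC, CDP), 0.39 (CDP/pDC, pDC), 0.76 and 0.13. In the same class of signal per kb it was 0.42, 0.41, 0.51, 0.58, 0.89, 1.22, 0.95 and 1.00. With equal totals, and direction taken anew from the scaled means, it was 0.41 (CDP/pDC, pDC) and -0.042 (cDC/pDC, pDC), a reversal. The regions counted in each set changed with this setting.

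Leaving out single libraries gave 1.27 to 1.34, 1.501 to 1.585, 1.78 to 1.81, 1.48 to 1.71, 1.73 to 1.78, 2.04 to 2.30, 1.70 to 1.75 and 2.07 to 2.35 for signal per kb. It gave 0.22 to 0.33, 0.17 to 0.32, 0.27 to 0.34, 0.43 to 0.48, 0.50 to 0.72, 0.44 to 0.59, 0.72 to 0.88 and 0.29 to 0.46 for log2 ratios, with 0.17 in the set of CDP over MPP without the first-listed CDP library, where the main value was 0.31.

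The yardstick for 24 shares of broad regions lying mainly in a direction of another list was an exact binomial interval. It takes regions as independent, though they share libraries and the same regions were scored again, so it is no test. Of these 24 shares, 14 stayed within it where at least 50% of a region had to be covered. Of those given here, 5 went from 63.2% to 40.8% (MPP over CDP, in pDC of cDC/pDC), 75.2% to 62.4% (cDC over CDP, in pDC of CDP/pDC), 64.5% to 46.0% (pDC over CDP, in cDC of CDP/cDC), 93.1% to 65.5% (cDC over pDC, in CDP of MPP/CDP) and 54.1% to 28.0% (pDC over cDC, in CDP of MPP/CDP). Over all regions of these directions, with no minimum coverage, the shares were 37.1%, 49.5%, 42.4%, 38.1% and 24.1%. They compare only with the first value of each pair, and regions without coverage lower them more. For pDC over cDC, 42.6% of all and 9.62% of broad regions had no coverage in MPP/CDP. Of the covered base pairs of broad regions, 69.4%, 79.7%, 66.2%, 85.5% and 55.5% lay in the named direction. For all regions these were 59.1%, 70.7%, 65.8%, 53.5% and 43.95%. With only broad regions of the other list the shares of broad regions were 14.5%, 29.4%, 8.82%, 17.2% and 1.57%. For the other 3 sets they were 14% (CDP over MPP, in pDC), 4.27% (CDP over cDC, in pDC) and 0% (CDP over pDC, in cDC). With −log10 p of at least 10 in the other list they were 58.7% (pDC over CDP) and 43.9% (pDC over cDC). Read depth is unknown, so no limit of detection can be given.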

Other observations

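The sex chromosomes, left out above, also held regions of 5 kb or more. In the MPP/CDP, CDP/cDC, CDP/pDC and cDC/pDC lists there were 2, 5, 4 and 2 among 1127, 1454, 1429 and 1451 regions on X. On Y there were 5, 0, 3 and 3 among 63, 194, 144 and 86 regions. Except in CDP/cDC, the share on Y was above that of the autosomes (0.211% in MPP/CDP, 0.670% in CDP/pDC and 0.780% in cDC/pDC). It rests on only 5, 3 and 3 regions there. The labels give no sex, so differences on Y between cell types cannot be told apart from differences in the sex of the animals.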
